A study of Mus musculus with 4 samples.

Results

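Genes that build glycosaminoglycans, or encode the proteins that carry or bind them, were followed in mouse embryonic fibroblasts (MEF cells) exposed to genistein, a plant isoflavone. The members were 50 genes, found by symbol among the 47937 genes of the deposited count table. They comprised 5 enzymes of the linker that joins a chain to its protein, 3 enzymes that supply precursors, 14 enzymes of heparan sulfate, 13 of chondroitin and dermatan sulfate, 5 genes of hyaluronan, and 3 secreted and 7 cell surface core proteins. Ribosomal RNA-depleted total RNA was sequenced as 2 libraries of untreated wild-type cells and 2 libraries of cells that had grown with 50 µM genistein over 24 h, for which the labels name the treatment in place of a genotype. In other assays of the study, untreated MEF cells received the solvent DMSO alone, but the labels of these libraries do not name a solvent. Nor do they say whether the replicates came from separate cultures, so p-values measure only the spread between these libraries, which may be technical. The libraries held 28591958 to 31464284 counts, and log2 levels correlated with r = 0.994 within each group and from 0.956 to 0.960 between groups. Of 9 fibroblast markers, 8 were tested, among them Col1a1, Col3a1 and Vim, and Thy1 had 0 counts in every library.

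Glycosaminoglycans are long unbranched sugar chains. Heparan sulfate and chondroitin or dermatan sulfate grow in the Golgi on a short linker attached to a core protein and are then sulfated, whereas hyaluronan is made at the plasma membrane without a core protein or sulfate. Fibroblasts surround themselves with such chains, on syndecans and glypicans at the surface and on versican, decorin and biglycan in the matrix. Genistein is known as a tyrosine kinase inhibitor and has been studied for lowering glycosaminoglycan synthesis in lysosomal storage disorders.

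The sequences shown are the 250 bases before a RefSeq start (GRCm38.p6) of 3 members higher with genistein and of 1 lower. These members were chosen after their values were seen, for large changes and a RefSeq start within 23 bases of the GENCODE gene start. Capitals mark matches on either strand to any of 6 motifs, and neighbouring matches may overlap. The GC box was spelled GGGCGG, and the E-box, a site of basic helix-loop-helix factors, CACGTG. The box bound by the factor NF-Y was searched for as CCAAT and the TATA box as TATAAA. The motif of AP-1 factors was written TGANTCA, and that of cyclic AMP response factors TGACGTCA.
Vcan, chr13:89742513-89742762, minus strand: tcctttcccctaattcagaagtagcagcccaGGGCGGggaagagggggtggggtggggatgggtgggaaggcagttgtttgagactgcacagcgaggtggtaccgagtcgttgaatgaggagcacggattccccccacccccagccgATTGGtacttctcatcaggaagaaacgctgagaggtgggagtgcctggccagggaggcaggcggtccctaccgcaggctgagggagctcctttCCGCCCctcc
Sulf2, chr2:166155684-166155933, minus strand: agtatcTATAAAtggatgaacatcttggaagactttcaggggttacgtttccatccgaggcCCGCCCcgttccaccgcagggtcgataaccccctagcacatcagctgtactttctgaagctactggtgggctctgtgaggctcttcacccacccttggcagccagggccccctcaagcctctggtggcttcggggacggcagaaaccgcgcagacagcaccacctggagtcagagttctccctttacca
Csgalnact2, chr6:118139141-118139390, minus strand: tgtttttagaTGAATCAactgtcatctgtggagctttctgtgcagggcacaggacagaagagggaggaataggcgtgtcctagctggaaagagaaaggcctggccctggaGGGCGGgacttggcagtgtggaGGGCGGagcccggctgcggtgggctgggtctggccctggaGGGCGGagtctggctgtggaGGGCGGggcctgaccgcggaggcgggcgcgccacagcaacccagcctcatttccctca
Chsy1, chr7:66109242-66109491, plus strand: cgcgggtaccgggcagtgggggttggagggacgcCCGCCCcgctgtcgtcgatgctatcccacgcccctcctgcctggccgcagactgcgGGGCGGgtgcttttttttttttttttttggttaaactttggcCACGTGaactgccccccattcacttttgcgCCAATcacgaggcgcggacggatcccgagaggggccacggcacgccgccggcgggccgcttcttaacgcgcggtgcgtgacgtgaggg
All 4 windows shown held a GC box, with 4 of them in Csgalnact2. Chsy1 also held an E-box whose first base lay at -118 from the start. RefSeq gave 45 windows for 37 of the members. Sulf2 and Csgalnact2 each had a second RefSeq start, 378 and 310 bases downstream of the GENCODE start, whose windows held no GC box. The GC box occurred in 64.4% of the member windows and in 32.7% of all 32851 windows, whose GC content was 62.9% and 53.2%. Windows of members called higher held it in 61.1% and those of members called lower in 58.3%. The E-box occurred in 8.89% of member windows and in 6.02% of all windows. These matches describe letters only.

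With genistein, the genes of the pathway moved in both directions, as did all genes tested. The largest increases were those of the scarce Has1 and of Gpc4, Vcan, Sulf2 and Dcn, and the largest decreases those of the scarce Chst7 and of Has2, Chsy1 and Dse. Of the 50 genes, 46 passed the filter on low counts. At an adjusted p-value under 0.05, 19 of the 46 (41.3%) were higher and 14 (30.4%) were lower with genistein, beside 33.5% higher and 38.2% lower among all 16240 genes tested (quasi-likelihood test of edgeR, p-values adjusted by Benjamini and Hochberg). Most shifts were small, since 18 of the 33 called members changed by less than 0.5 on the log2 scale. The median log2 fold change was 0.08 over the tested members and -0.03 over all genes tested. Both genistein libraries lay above both untreated libraries for 21 of the 46 members, beside 40.7% of all genes tested, and below them for 15, beside 44.6%. When a change of over 1 on the log2 scale in either direction and an average of over 100 normalised counts were also required, Vcan, Dcn, Sulf2 and Gpc4 were higher, and 0 members were lower. That is 4 of 46 beside 3.92% of all genes tested that were higher and 4.16% that were lower. Of these 4, Gpc4 averaged 80.8 normalised counts untreated and 187 with genistein, so the genistein libraries carried it past 100. In bulk RNA, fewer cells of a type and less RNA per cell cannot be told apart.

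**Figure D1:**
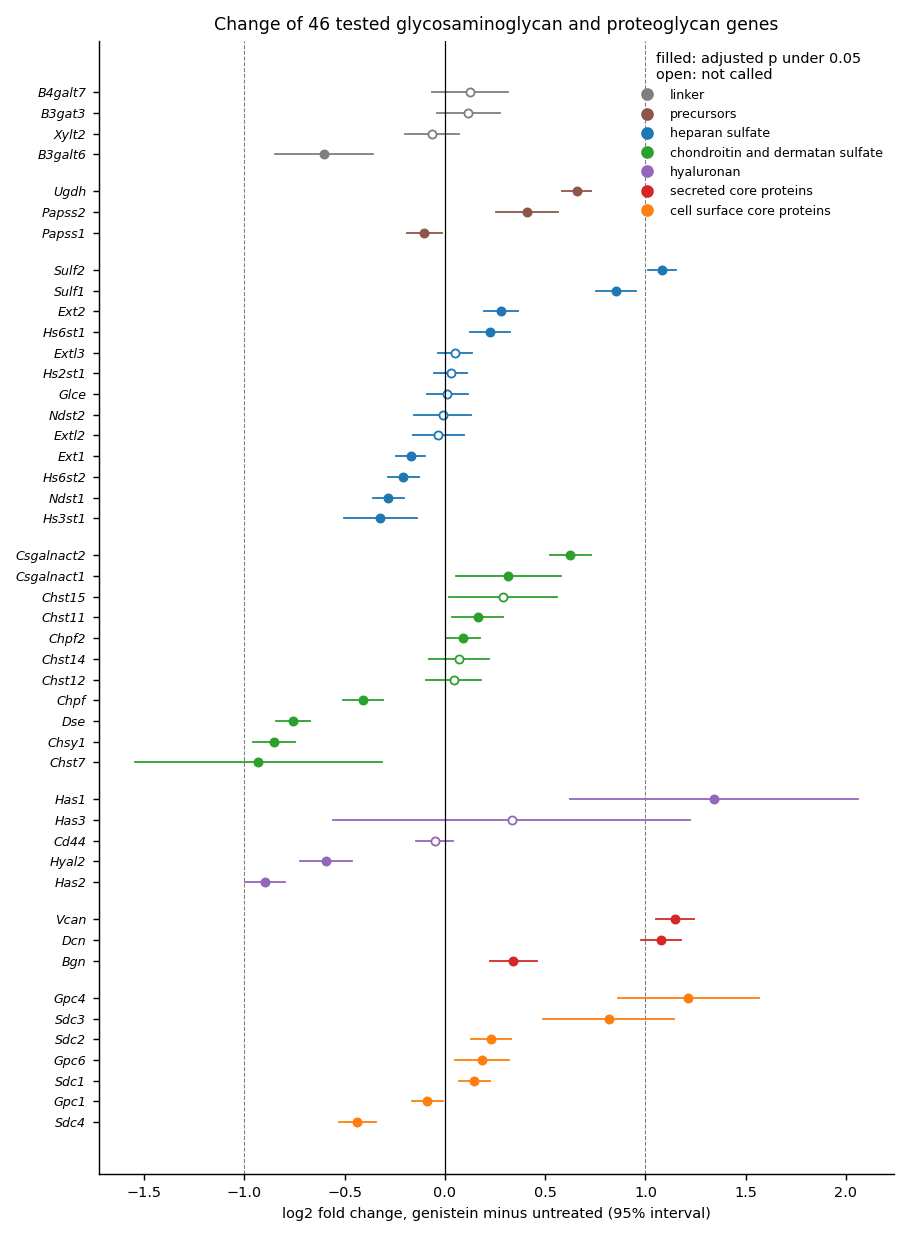
Log2 fold change of the 46 tested members (points, genistein minus untreated) with 95% intervals (lines), grouped by role, where filled points had an adjusted p-value under 0.05 (edgeR) and dashed lines mark a log2 fold change of 1 in either direction. Vcan, Dcn, Sulf2, Gpc4 and the low-count Has1 lie beyond the upper line, and no point lies beyond the lower line.

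The secreted core proteins were all higher with genistein, beside 33.5% of all genes tested, with a median log2 fold change of 1.08 over 3 genes. Vcan (chromosome 13, 89655312 to 89742509) encodes versican, a large chondroitin sulfate proteoglycan that binds hyaluronan. Its normalised read count, the count scaled to the mean effective library size, was 28224 and 29278 untreated and 64899 and 62554 with genistein. Both genistein libraries lay far above both untreated libraries, with a 2.22-fold increase (log2 fold change 1.15, SE 0.04, adjusted p = 1.5e-12, edgeR). The gene took 0.0919% and 0.0957% of all counts in untreated cells and 0.220% and 0.216% after genistein. Dcn (chromosome 10, 97479609 to 97518143) encodes decorin, a small leucine-rich proteoglycan that binds collagen fibrils. It rose from 6597 ± 280.1 to 13935 ± 429 normalised counts (SD, n = 2), from 6795 and 6399 to 13632 and 14239 in the single libraries, a 2.11-fold increase (adjusted p = 5.9e-12, edgeR). Bgn (chromosome X, 73483602 to 73495933) encodes biglycan, a close relative of decorin. Its counts of 13541 and 13959 untreated and of 18441 and 16406 with genistein did not overlap, but the increase of 1.27-fold was smaller (log2 fold change 0.34, SE 0.06, adjusted p = 3.6e-05, edgeR). The ratio of Vcan to Bgn raw counts, which no scaling of libraries changes, was 2.08 and 2.10 untreated and 3.52 and 3.81 with genistein, and that of Dcn to Bgn was 0.502 and 0.458 untreated and 0.739 and 0.868 with genistein.

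**Figure D2:**
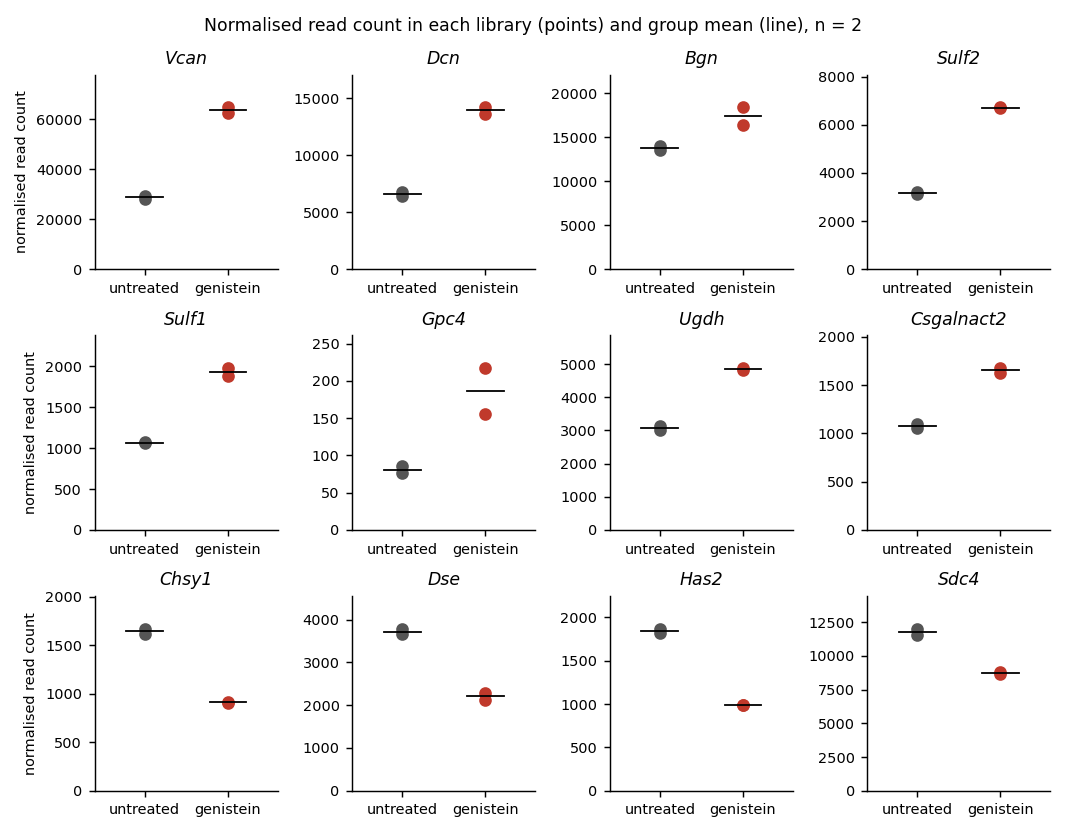
Normalised read counts of 12 members in each library (points, n = 2 per group) with the group mean (line), on axes that start at 0. The points of the groups do not overlap in any panel, and the genistein points of Gpc4 and Bgn lie further apart, relative to their mean, than those of Vcan or Sulf2.

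Of the 7 cell surface core proteins, 5 were higher (71.4%) and 2 were lower (28.6%), beside 33.5% and 38.2% of all genes tested. Their median log2 fold change was 0.18. Syndecans are transmembrane heparan sulfate proteoglycans, and their most abundant transcript per length, Sdc4 (chromosome 2, 164424247 to 164443887), went the other way from its relatives. Sdc4 had 12011 and 11548 normalised counts untreated and 8637 and 8774 with genistein, and so fell by 26.1% (log2 fold change -0.44, SE 0.04, adjusted p = 1.7e-07, edgeR). Sdc1 rose from 5932 and 5515 to 6203 and 6469, an increase of 10.7% (adjusted p = 0.0022, edgeR), and without untreated 2 its adjusted p was 0.081. Sdc2 rose from 1350 and 1361 to 1550 and 1628 normalised counts, or by 17.2% (adjusted p = 0.00034, edgeR). The scarce Sdc3 rose from 63.9 and 78.3 to 131 and 118, a 1.76-fold increase (adjusted p = 0.00017, edgeR). Per kilobase of exon, Sdc4 made up 70.7% and 71.1% of the syndecan counts in untreated cells and 61.9% and 61.2% after genistein, whereas Sdc1 went from 23.4% and 22.7% to 29.7% and 30.2%.

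Glypicans are held in the membrane by a lipid anchor and also carry heparan sulfate. Gpc4 (chromosome X, 52053021 to 52165252) had 75.9 and 85.8 normalised counts untreated and 218 and 156 with genistein, a 2.32-fold increase (log2 fold change 1.21, SE 0.17, adjusted p = 6e-06, edgeR). The size rested on genistein 1, without which the log2 fold change was 0.95 and under the fold threshold. Gpc6 differed by 0.18 and Gpc1, the most abundant of the 3, by -0.09 on the log2 scale (adjusted p = 0.016 and 0.037, edgeR). The Gpc6 call was lost in 3 of 11 alternative fits. The Gpc1 call was lost in 8 of 11, such as with library totals (-0.02, adjusted p = 0.69, edgeR).

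**Figure D3:**
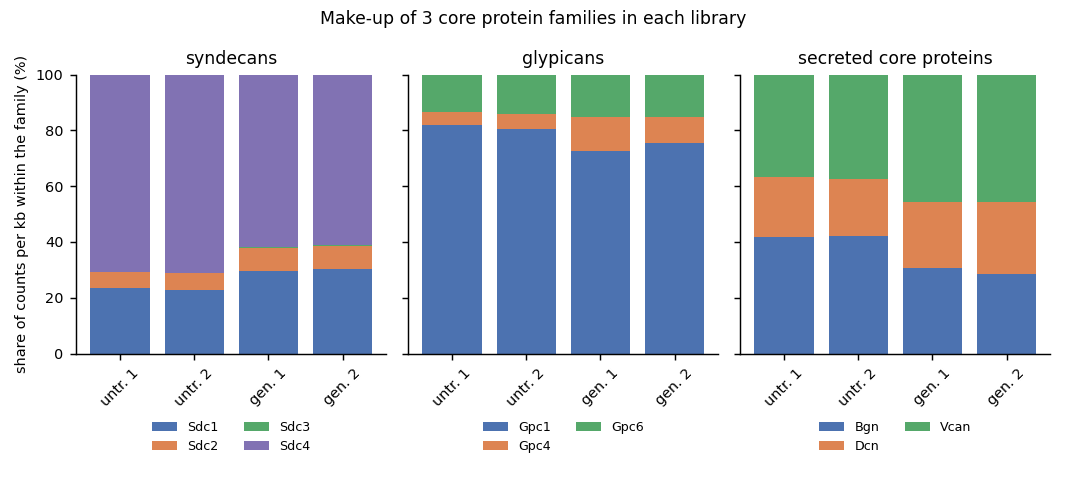
Share of the counts per kilobase of exon that each gene took within its family (stacked bars, in percent) in each of the 4 libraries. Sdc4 drops from 70.7% and 71.1% of the syndecans to 61.9% and 61.2%, Gpc4 grows from 4.52% and 5.08% of the glypicans to 12.2% and 9.17%, and Vcan grows from 36.6% and 37.4% of the secreted group to 45.6% and 45.8%.

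Among the heparan sulfate enzymes, the 2 extracellular sulfatases rose most, while the chain-building enzymes shifted little. Of 14 genes, 13 were tested, 4 were higher, 4 were lower and 5 were not called, with a median log2 fold change of 0.01. Each direction held 30.8% of those tested, beside 33.5% higher and 38.2% lower among all genes tested. Sulf2 (chromosome 2, 166073089 to 166155663) and Sulf1 encode endosulfatases that remove sulfate groups from finished chains outside the cell. Sulf2 had 3138 and 3212 normalised counts untreated and 6750 and 6701 with genistein, with libraries of a group nearly equal and a 2.12-fold increase (log2 fold change 1.08, SE 0.03, adjusted p = 5.4e-14, edgeR). Sulf1 followed with 1059 and 1078 untreated and 1881 and 1982 with genistein, a 1.81-fold increase (adjusted p = 1e-10, edgeR). The exons of Sulf2 share 154 bases with Ncoa3 on the opposite strand, whose raw counts were 1325 and 1351 untreated and 2114 and 1775 with genistein, and the strand setting of the counter is not given in the sources used here.

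Ext1 and Ext2 form the polymerase of heparan sulfate, and they moved apart. Ext2 rose from 1752 and 1733 to 2128 and 2100 normalised counts (log2 fold change 0.28, SE 0.04, adjusted p = 9e-06, edgeR), whereas Ext1 went from 4644 and 4749 to 4086 and 4258 (-0.17, SE 0.03, adjusted p = 0.00028, edgeR). Their ratio of raw counts, Ext2 to Ext1, was 0.377 and 0.365 untreated and 0.521 and 0.493 with genistein. Ndst1, which starts sulfation of the chain by exchanging acetyl for sulfate groups, was lower by 0.28 on the log2 scale at 2818 and 2750 untreated against 2294 and 2284 normalised counts (adjusted p = 3.4e-06, edgeR). The sulfotransferases Hs6st1 and Hs6st2, which act on glucosamine, also differed in sign, at 0.22 and -0.21 (adjusted p = 0.00041 and 9.4e-05, edgeR). Hs3st1, which adds a rare sulfate of the antithrombin-binding site, showed the largest decrease of the group, from 389 and 349 to 294 and 298 normalised counts (-0.32, SE 0.09, adjusted p = 0.0032, edgeR).

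The remaining heparan sulfate enzymes did not pass. The 95% interval of the log2 fold change ran from -0.03 to 0.14 for Extl3, which starts the chain, from -0.16 to 0.09 for its relative Extl2 and from -0.15 to 0.13 for Ndst2. It ran from -0.06 to 0.11 for Hs2st1, which sulfates the uronic acid, and from -0.09 to 0.11 for Glce, the epimerase that makes iduronic acid. These intervals include only the spread between these libraries. All of them end below the log2 fold changes of Sulf1 (0.85) and Sulf2 (1.08). Hs3st3b1 was too scarce to test, with 3 and 4 raw counts untreated and 7 and 13 with genistein.

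In the chondroitin and dermatan sulfate group, the chain-starting Csgalnact2 rose, while the polymerising Chsy1 and Chpf and the epimerase Dse fell. Of 13 genes, 11 were tested, 4 were higher, 4 were lower and 3 were not called, with a median log2 fold change of 0.07. Higher and lower calls each made up 36.4% of those tested, near the 33.5% and 38.2% of all genes tested. Csgalnact2 (chromosome 6, 118107452 to 118139140), which adds the first N-acetylgalactosamine and so commits the linker to chondroitin sulfate, rose from 1092 and 1052 to 1629 and 1678 normalised counts, a 1.54-fold increase (log2 fold change 0.62, SE 0.05, adjusted p = 6.3e-09, edgeR). Csgalnact1, with the same activity, differed by 0.32 (adjusted p = 0.030, edgeR), and its call was lost in 3 of 11 alternative fits, among them DESeq2. Chsy1 (chromosome 7, 66109515 to 66173798) encodes a synthase that extends the chain. It had 1670 and 1616 normalised counts untreated and 905 and 917 with genistein, and so fell by 44.6% (log2 fold change -0.85, SE 0.05, adjusted p = 1.7e-10, edgeR). Its partner Chpf went from 1511 and 1547 to 1139 and 1166 (-0.41, SE 0.05, adjusted p = 9.4e-07, edgeR). Raw counts of Csgalnact2 stood to those of Chsy1 as 0.654 and 0.651 untreated and as 1.80 and 1.83 with genistein.

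Dse (chromosome 10, 34151393 to 34207715), the epimerase that turns chondroitin into dermatan sulfate, fell by 40.8%, from 3789 and 3657 to 2133 and 2276 normalised counts (log2 fold change -0.76, SE 0.04, adjusted p = 5.4e-11, edgeR). The dermatan sulfotransferase Chst14, which acts after it, had an interval from -0.08 to 0.22, and the Dse to Chst14 ratio of raw counts was 7.74 and 7.96 untreated and 4.19 and 4.68 with genistein. Chst7 (chromosome X, 20059560 to 20097521), a sulfotransferase of low abundance, had the largest decrease of the group at -0.93 (SE 0.29, adjusted p = 0.0089, edgeR). It rested on 29 and 29 raw counts untreated and 18 and 14 with genistein, and the call was lost without genistein 2 (adjusted p = 0.075, edgeR) and with DESeq2 (adjusted p = 0.13).

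Chst11, another sulfotransferase of this group, differed by 0.16 (adjusted p = 0.021, edgeR), with its call lost in 3 of 11 alternative fits. Chst12 had an interval from -0.10 to 0.18 and Chst15 from 0.02 to 0.56 (adjusted p = 0.051, edgeR), and Chst15 was called higher in 6 of 11 alternative fits. The chain-extending factor Chpf2 differed by 0.09 (adjusted p = 0.049, edgeR), and 7 of 11 alternative fits lost this call. Exons of Chpf2 share 2466 bases with Smarcd3 on the other strand, whose counts were 569 and 522 untreated and 252 and 223 with genistein. Chst3 had 9 and 8 raw counts untreated and 3 and 6 with genistein, and Chsy3 had at most 1 per library.

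The linker enzymes, which heparan and chondroitin sulfate share, stayed close to their untreated levels except for B3galt6. This galactosyltransferase (chromosome 4, 155989466 to 155992649) had 200 and 191 normalised counts untreated and 130 and 127 with genistein, a decrease of 0.60 on the log2 scale (SE 0.11, adjusted p = 0.00019, edgeR). Of the 4 linker genes tested, 1 was lower (25%, beside 38.2% of all genes tested) and 3 were not called. Xylt2 encodes a xylosyltransferase, which starts the linker. Its normalised counts of 666 and 616 untreated overlapped those of 625 and 603 with genistein, and the interval was -0.20 to 0.07. Its relative Xylt1 had 0, 0, 1 and 0 raw counts in untreated 1, untreated 2, genistein 1 and genistein 2, where a count of 0 allows at most 3 counts, for counting error only. The intervals were -0.07 to 0.32 for the galactosyltransferase B4galt7 and -0.04 to 0.27 for B3gat3, which closes the linker with glucuronic acid.

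Among the suppliers of precursors, Ugdh (chromosome 5, 65413221 to 65435949) makes the UDP-glucuronic acid that all these chains need. It rose from 3127 and 3018 to 4809 and 4888 normalised counts, a 1.58-fold increase (log2 fold change 0.66, SE 0.03, adjusted p = 4.7e-11, edgeR). Exons of Ugdh share 158 bases with Gm43552 on the same strand, whose raw counts were 269 and 210 untreated and 430 and 382 with genistein. Papss1 and Papss2 make the sulfate donor PAPS. Papss2 rose from 355 and 380 to 487 and 488 normalised counts (0.41, SE 0.07, adjusted p = 0.00011, edgeR). The more abundant Papss1 had 1930 and 1869 untreated and 1788 and 1750 with genistein (-0.10, adjusted p = 0.036, edgeR), a call that was lost in 8 of 11 alternative fits, such as with library totals (-0.03, adjusted p = 0.52, edgeR).

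Of 5 hyaluronan genes, 1 was higher (20%), 2 were lower (40%) and 2 were not called, beside 33.5% higher and 38.2% lower among all genes tested. Has2 (chromosome 15, 56665627 to 56694539) supplied nearly all hyaluronan synthase transcripts, from 95.8% to 99.2% of the counts per kilobase in the 4 libraries. It had 1869 and 1821 normalised counts untreated and 988 and 993 with genistein, and so fell by 46.3% (log2 fold change -0.90, SE 0.05, adjusted p = 4.6e-11, edgeR). Has1 (chromosome 17, 17843323 to 17855205) went up at a very low level, from 11 and 12 to 39 and 23 raw counts (1.34, SE 0.34, adjusted p = 0.0021, edgeR). That call was lost without genistein 1 (0.97, adjusted p = 0.067, edgeR). Has3 had 8 and 10 raw counts untreated and 14 and 10 with genistein, and its interval from -0.56 to 1.22 allows sizeable changes in either direction. Exons of Has3 share 352 bases with Chtf8 on the other strand, whose raw counts were 5918 and 5423 untreated and 4784 and 4650 with genistein. Hyal2, a hyaluronidase at the cell surface, fell by 33.7%, from 811 and 808 to 554 and 518 normalised counts (adjusted p = 2.2e-07, edgeR). Cd44, the main hyaluronan receptor, had 8877 and 9117 untreated and 8930 and 8428 with genistein, and its interval was narrow, from -0.14 to 0.04. The hyaluronan-binding versican and its ligand's synthase moved in opposite directions, with a Vcan to Has2 ratio of raw counts of 15.1 and 16.1 untreated and 65.7 and 63.0 with genistein.

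Levels of different genes were compared per kilobase of exon. In untreated cells the order was led by Sdc4 with 4625 normalised counts per kilobase, Bgn with 2254 and Vcan with 1988. With genistein Vcan came first with 4407, followed by Sdc4 with 3418, Bgn with 2857 and Dcn with 2387. Among the 16157 tested genes with an annotated length, Vcan moved from rank 772 to rank 261 and Dcn from 1437 to 456. Sulf2 moved from 3060 to 1090, and Dse went down from 2219 to 3178. The exon lengths join all annotated transcripts of a gene, so these levels depend on the annotation.

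**Figure D4:**
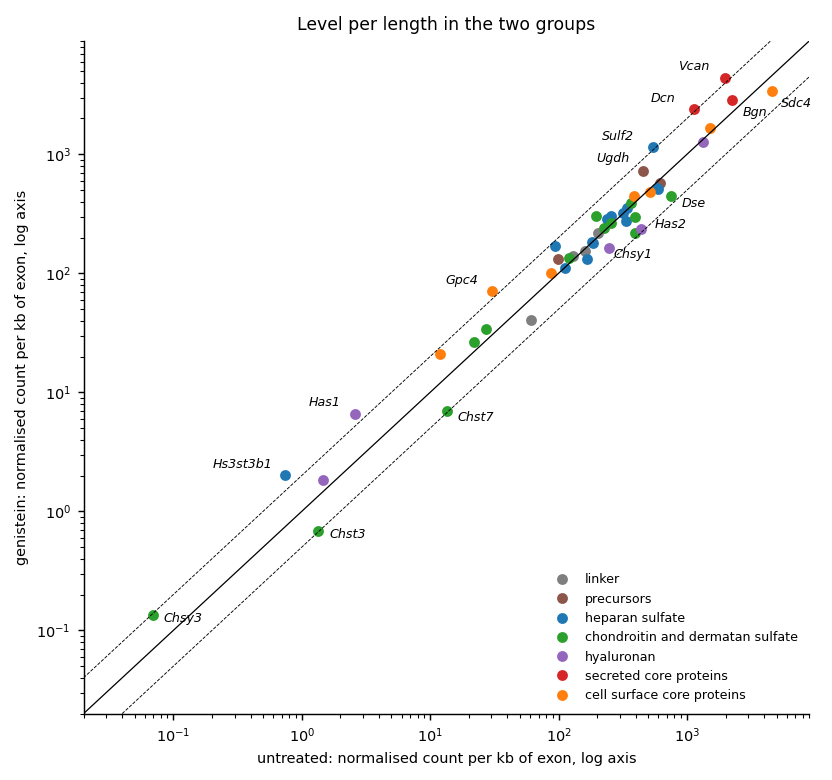
Mean normalised count per kilobase of exon in untreated (x axis) and genistein libraries (y axis), both on log axes, for every member except Xylt1, which had 0 counts in both untreated libraries. The solid line marks equal levels and the dashed lines a factor of 2, and Vcan, Dcn, Sulf2, Gpc4 and the scarce Has1 and Hs3st3b1 lie above the upper dashed line.

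Other genes of the pathway, listed from general knowledge but with earlier results of these data known, were counted in the same fit. Of 69 genes, 46 were tested, 33 were higher (71.7%) and 10 were lower (21.7%), with a median log2 fold change of 0.55, beside 33.5% and 38.2% of all genes tested. Among the lysosomal enzymes that degrade glycosaminoglycans, 13 were tested. Of these, 11 were higher, 1 was lower and 1 was not called, with a median of 0.63. Idua, the iduronidase, rose from 88.9 and 78.3 to 174 and 169 (1.04 on the log2 scale, adjusted p = 3.1e-06, edgeR). Gusb, the beta-glucuronidase, was the exception, at 2464 and 2328 untreated and 1901 and 1885 with genistein (-0.34, adjusted p = 1.4e-06, edgeR).

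Of 14 other linker and precursor genes, 7 were higher (50%) and 5 were lower (35.7%), beside 33.5% and 38.2% of all genes tested. Pxylp1, a phosphatase that removes phosphate from the linker xylose, had 187 and 259 normalised counts untreated and 534 and 553 with genistein, a 2.44-fold increase (adjusted p = 1.5e-08, edgeR). Ust, which sulfates the uronic acid of chondroitin and dermatan sulfate, rose from 92.9 and 95.3 to 244 and 255 (1.40, SE 0.12, adjusted p = 1.6e-08, edgeR), whereas Dsel, a second dermatan epimerase, was lower by 0.49 (adjusted p = 1.2e-06, edgeR), as Dse was. Of 7 genes on the other hyaluronan list, 5 were tested (Hyal1, Cemip, Tmem2, Hmmr and Tnfaip6). All 5 were higher, beside 33.5% of all genes tested, by 0.21 (Hmmr) to 2.65 (Hyal1) on the log2 scale. The members Has2 and Hyal2 were lower. Among them, Tnfaip6, which transfers protein chains onto hyaluronan, rose from 89.9 and 76.2 to 159 and 185 normalised counts (1.05, SE 0.14, adjusted p = 5.8e-06, edgeR). Heparan sulfate genes outside the members were mostly too scarce to test, since 2 of 10 passed the filter on low counts.

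**Figure D5:**
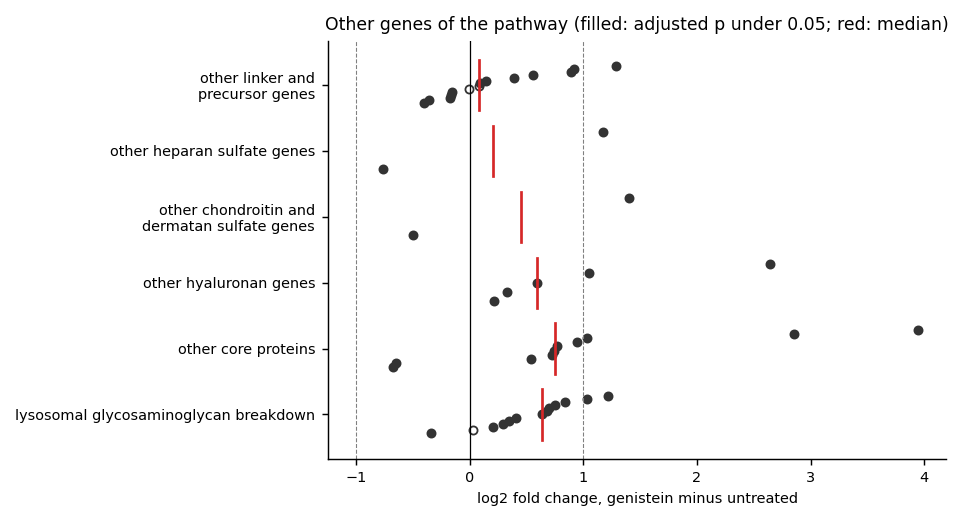
Log2 fold change (genistein minus untreated) of the 46 tested genes outside the members, by list, with filled points at an adjusted p-value under 0.05 (edgeR) and the median of each list in red. In the lysosomal list 11 of 13 points are called higher, and the median of the other core proteins is 0.76.

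Markers of other cell types were counted beside these results. The 5 immune markers summed to 192 to 210 normalised counts untreated and 550 to 574 with genistein, through Cd68 and Csf1r, while Adgre1 had 0 counts and Ptprc at most 1 in every library. Of 6 chondrocyte markers, whose sum went from 224 to 275 untreated to 370 to 396 with genistein, Sox9 was higher, Acan and Col9a1 had 0 counts and Comp at most 3. The 5 myoblast markers summed to 30.7 to 39.0 untreated and 267 to 288 with genistein, through Des, with Myod1 and Myf5 at 0. The 5 endothelial markers went from 26.0 to 33.9 to 99.2 to 99.4, through Kdr. The 5 epithelial markers went from 452 to 462 down to 132 to 137, through Krt8 and Krt18. Epcam had 0 counts, and Cdh1 had 4 to 8 raw counts per library in both groups. The 5 neural markers went from 1215 to 1331 down to 1052 to 1121, through Nes and Tubb3, with Sox2 at 0. The fibroblast markers summed to 426170 to 438298 untreated and 398408 to 408228 with genistein, with 7 lower and 1 higher. Their part in the results above was not tested.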

How the data were processed

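The authors prepared stranded, ribosomal RNA-depleted libraries, read them from both ends, trimmed reads with Trim Galore, aligned them to mm10 with STAR, keeping reads that map to many places, and counted genes (GENCODE M9) and repeats with TEtranscripts. They deposited the raw counts without normalisation. The entry that named no gene held 0.00208% to 0.00314% of a library's counts and was left out.

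Symbols, exon lengths and coordinates came from GENCODE M21 (GRCm38, the assembly of mm10). Counts of 16240 genes and 1118 repeats kept by filterByExpr were scaled by TMM and compared with the quasi-likelihood test of edgeR 4.0.16 in R 4.3.3, with Benjamini-Hochberg adjustment over all of them. The SE is the log2 fold change divided by the square root of F. An exact permutation test of 2 against 2 libraries cannot go below p = 0.333. The 3 thresholds followed the study's methods, which used DESeq2 (here an alternative, 1.42.0). Members and lists were chosen with earlier results of these data known, so no list was given a p-value. Values per library were printed for members past all thresholds, for the largest called change of each role in each direction and for listed synthases, receptors and core proteins. The values of 1 gene outside the members that this rule would name are not reported here. Those of Sulf1, Chsy1, Chpf, Dse, Ext1, Ext2, Ndst1, Papss2 and Hyal2, the value of Dsel and the ratios were chosen after values were seen. The 95% intervals come from the same fit and include the spread between libraries, whereas floors of 3 counts cover counting error only.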

Additional observations from a re-analysis of the deposited data

How the results depend on the processing

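The calls of 13 of 19 higher and 11 of 14 lower members held under all 11 alternative fits (10 for Has1, Has3 and Chst7, which a minimum of 1 CPM left out), and 0 calls reversed. The calls lost in at least 1 fit were those of Papss1, Gpc1, Chpf2, Csgalnact1, Chst7, Chst11, Has1, Sdc1 and Gpc6, and 4 members that were not called (B4galt7, B3gat3, Extl3 and Chst15) passed in at least 1. When tested against the fold threshold itself, 2 members were higher, Vcan and Sulf2, while Dcn and Gpc4 were not called. The median log2 fold change of the tested members was 0.15 with library totals, where the median of all genes was 0.04, 0.12 with genes alone, 0.055 with no filter and 0.095 with at least 1 CPM in at least 2 libraries. Without 1 library it lay from 0.057 to 0.0999. DESeq2 called 15 members higher and 11 lower, and library totals 22 and 12. Over all genes tested, 6085 were then higher and 5530 lower with library totals, and 5888 and 5830 with genes alone, against 5436 and 6210 with the scaling used. Without genistein 1 the members past all thresholds were 3, since Gpc4 dropped out. Without 1 library, higher members numbered 17 to 18 and lower members 11 to 14.

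With the replicate block, 19 members were higher and 12 were lower, with the calls of Papss1, Gpc1 and Chpf2 lost and Chst15 gained. Libraries with the same number did not deviate together (r = -0.03), so the numbers give no evidence of pairing. The depth limits Has1, Has3, Chst7 and the 4 members that were not tested, which had at most 13 counts in a library.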

Other observations

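Core proteins outside the members are named here after their values were seen. Of 22 such genes, 10 were tested. Of these, 8 (80%) were higher and 2 (20%) were lower, beside 33.5% and 38.2% of all genes tested. Hspg2, which encodes perlecan, a heparan sulfate proteoglycan of basement membranes, had 15388 and 16324 normalised counts untreated and 32430 and 28452 with genistein, a 1.92-fold increase (adjusted p = 4.7e-10, edgeR). Agrn, which encodes agrin, rose from 1704 and 1625 to 2780 and 2717 (adjusted p = 1.1e-10, edgeR). Prg4, which encodes lubricin, had 8.99 and 5.29 untreated and 120 and 105 with genistein, a log2 fold change of 3.95 (SE 0.26, adjusted p = 1.1e-09, edgeR). With only 9 and 5 raw counts untreated, Prg4 passed the filter on low counts through the genistein libraries, so the size of this change is uncertain. Ogn and Col18a1 were lower, at -0.67 and -0.65 (adjusted p = 6.5e-08 and 9.3e-06, edgeR).

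Enzymes and carriers at the ends of the pathway were also higher. Hyal1, the lysosomal hyaluronidase, had 21.0 and 14.8 normalised counts untreated and 125 and 101 with genistein (log2 fold change 2.65, SE 0.22, adjusted p = 2.1e-08, edgeR), whereas the surface hyaluronidase Hyal2 was lower. Hpse, the heparanase that cuts heparan sulfate, rose from 39.0 and 34.9 to 85.3 and 82.0 (adjusted p = 2.9e-05, edgeR). Slc26a2, which takes up sulfate, rose from 825 and 868 to 1609 and 1524 (adjusted p = 2.6e-10, edgeR), and Slc35d1, which carries UDP-sugars into the endoplasmic reticulum, from 354 and 416 to 772 and 678 (adjusted p = 4.7e-08, edgeR).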
